A study of Mus musculus with 10 samples.

Results

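Of the genes measured in Tsk2 mouse skin, 41 encode proteins that copy nuclear DNA. They form one set chosen by function, as the genes for origin licensing, helicase activation, the replicative polymerases and primase, the sliding clamp and its loader, single-strand binding, Okazaki fragment maturation, nucleotide supply and replication-coupled chromatin assembly. Members were found by the gene symbol of their probes in the platform annotation, and all 41 were measured, among 13501 genes tested. The rule names genes by function and uses no measured value, but the members were chosen with earlier results of these data known.

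The study compared skin of several mouse models of scleroderma with human skin. The samples used here were 4 skin samples of Tsk2 mice at 4 months of age and 4 skin samples of Tsk2 mice at 1 month, on 10 2-colour arrays. Tsk2 is a dominant tight-skin mutation of the mouse, and titles of all samples also carry the word transgenic. Every sample of both ages carried the mutation and no wild-type skin was analysed here, which leaves a comparison of ages within the mutant alone.

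Skin RNA was labelled with Cy3 on every array and hybridised against Cy5-labelled RNA of a common reference, which the labels call UMR. The deposited table names neither numerator nor log base, so the values below, log2 of skin over reference, rest on the likely direction and base. With the other direction every fall below would read as a rise, and with natural logarithms every difference would be 1.44 times as large on the log2 scale. Between 26% and 47.4% of the probes of an array held an exact 0, read as not measured, which left at most 1 member without a value on an array. The median log2 ratio of the measured probes lay between -0.07 and 0.12. Skin was checked against its markers in the direction taken. With the other direction the medians of the 3 marker lists that follow would all lie below 0. On all 10 arrays the median log2 ratio was 2.64 to 4.26 for the basal keratinocyte list and 3.90 to 5.32 for epidermal differentiation, and the skeletal muscle list was at 4.27 to 6.95. A sample of each age, 4-month sample 2 and 1-month sample 1, was run on 2 arrays, which were averaged.

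Titles give each skin sample an ID number. The 4-month samples carried 3 numbers, with samples 2 and 3 sharing one, and the 1-month samples carried 2 numbers, shared by samples 1 and 2 and by samples 3 and 4. As the ages had no number in common, age cannot be told apart from other differences between the numbers. Separate animals are not stated, and the p-values therefore cover only the spread seen among these samples, part of which may be technical.

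Before a cell copies its DNA, the origin recognition complex, with CDC6 and CDT1, loads the ring-shaped MCM helicase onto origins, and kinases then switch the helicase on. Polymerases, a sliding clamp and ligase copy both strands while nucleotide enzymes supply the building blocks and histone chaperones repackage the new DNA. Many of these genes are transcribed late in the gap phase before DNA synthesis, under control of E2F transcription factors, and are nearly silent in resting cells. In skin, dividing cells lie mainly in the basal epidermis, the outer root sheath and, during hair growth, the hair matrix.

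Promoters are shown first because the E2F motif is the sequence feature these genes are best known for. RefSeq windows of GRCm38.p6, from 250 bases before to 50 bases after a gene's start, matched 35 of the 41 members by symbol, and Mcm4, Gins1, Gins2, Prim2, Pole and Rfc2 had none in the table. The motif was searched as the letters TTTCCCGC, TTTGGCGC, TTTCGCGC or TTTGCCGC on either strand, and overlapping matches were counted. It occurred in 12 of the 35 members (34.3%), against 2.60% of the 27025 genes with a window. The lines below give bases -160 to -1 before the start, 5′ to 3′ on the gene's strand, with each E2F match in capitals. Mcm5, Mcm6, Orc1, Cdc6 and Pola1 hold a match there, Mcm10 and Tyms had the lowest age differences and hold none, and Rpa1 had the highest age difference and holds none. These 8 were chosen after their values were seen. 
Mcm5 (chr8:75109349-75109508, plus strand): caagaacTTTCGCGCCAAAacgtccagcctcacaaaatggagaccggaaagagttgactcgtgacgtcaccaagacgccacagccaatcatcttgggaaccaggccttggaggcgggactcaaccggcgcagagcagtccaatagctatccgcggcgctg
Mcm6 (chr1:128359706-128359865, minus strand): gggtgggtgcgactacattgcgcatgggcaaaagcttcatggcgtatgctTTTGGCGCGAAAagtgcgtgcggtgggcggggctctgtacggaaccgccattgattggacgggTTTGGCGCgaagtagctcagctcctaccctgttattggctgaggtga
Orc1 (chr4:108579294-108579453, plus strand): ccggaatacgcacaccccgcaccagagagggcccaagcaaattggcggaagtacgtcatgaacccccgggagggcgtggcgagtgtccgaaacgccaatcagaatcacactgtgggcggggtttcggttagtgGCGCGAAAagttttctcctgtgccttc
Cdc6 (chr11:98907991-98908150, plus strand): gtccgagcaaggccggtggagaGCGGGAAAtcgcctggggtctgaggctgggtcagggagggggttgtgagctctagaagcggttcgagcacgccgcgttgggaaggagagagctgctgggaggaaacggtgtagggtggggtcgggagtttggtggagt
Pola1 (chrX:93632156-93632315, minus strand): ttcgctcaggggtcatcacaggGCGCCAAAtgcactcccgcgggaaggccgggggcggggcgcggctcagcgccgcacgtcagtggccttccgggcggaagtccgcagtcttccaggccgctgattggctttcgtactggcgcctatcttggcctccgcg
Mcm10 (chr2:5012792-5012951, minus strand): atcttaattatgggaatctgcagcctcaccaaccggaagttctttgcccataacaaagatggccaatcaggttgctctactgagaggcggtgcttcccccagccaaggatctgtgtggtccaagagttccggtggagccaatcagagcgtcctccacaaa
Tyms (chr5:30073626-30073785, minus strand): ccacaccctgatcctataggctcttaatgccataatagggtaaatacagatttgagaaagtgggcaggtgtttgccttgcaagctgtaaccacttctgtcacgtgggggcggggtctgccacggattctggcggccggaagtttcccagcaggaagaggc
Rpa1 (chr11:75348384-75348543, minus strand): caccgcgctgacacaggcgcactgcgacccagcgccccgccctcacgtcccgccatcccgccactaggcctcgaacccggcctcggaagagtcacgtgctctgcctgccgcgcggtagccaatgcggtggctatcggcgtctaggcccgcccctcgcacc

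In Mcm5 the capitals are 2 overlapping matches on opposite strands that start at -153 and -149. Mcm6 holds such an overlapping pair at -110 and -106 and a further match at -47. The single matches of Orc1, Cdc6 and Pola1 start at -27, -138 and -138. By role, 7 of the 9 origin licensing genes with a window held a match (Orc1, Cdc6, Cdt1, Mcm3, Mcm5, Mcm6 and Mcm7), as did 3 of 6 polymerase and primase genes (Pola1, Pold1 and Pole2). Rfc3 and Lig1 were the remaining members with a match. None of the 3 helicase activation, 5 nucleotide supply, 3 single-strand binding or 2 chromatin assembly genes with a window held one. The letters CCAAT, on either strand, occurred in 21 of 35 members (60.0%) against 41.1% of all genes. The CHR element of mitotic genes, searched as TTTGAA or TTCGAA on either strand, occurred in 7 of 35 members (20.0%) against 21.7% of all genes. A match is a run of letters and not a shown binding site, and a window without a match is not shown to lack a site.

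Across the 41 members, 20 were lower at 4 months than at 1 month at an adjusted p under 0.05 and 0 were higher, against 3.06% of all genes lower and 4.19% higher. The other 21 did not pass, although 36 of the 41 had an unadjusted p under 0.05, beside 24.3% of all genes. The fitted difference, 4 months minus 1 month, was below 0 for 40 of the 41, with a median of -1.18, beside a median of 0.03 over all 13501 genes. In 30 members every 4-month sample lay below every 1-month sample, against 10.2% of all genes, and these 30 were the 20 that passed and 10 that did not. Skin is a mixed tissue, so fewer cells of a type and less RNA per cell cannot be told apart in these values.

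How many members passed depended on single samples, while the direction of the median did not. Without 1-month sample 1, 2 of the 41 members passed as lower (Mcm10 and Tk1), against 0.426% of all genes. Without 4-month sample 4, 33 of 41 passed, against 7.45% of all genes. The count was 7, 8 and 10 of 40 without 4-month sample 1, 2 or 3, against 1.43%, 1.67% and 1.73% of all genes. It was 11 of 41 without 1-month sample 2, against 2.23% of all genes. Without 1-month sample 3 or 4 it was 21 or 20 of 41, against 3.08% and 2.87% of all genes. The median difference stayed between -1.35 and -1.01 in these 8 repeats.

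**Figure D1:**
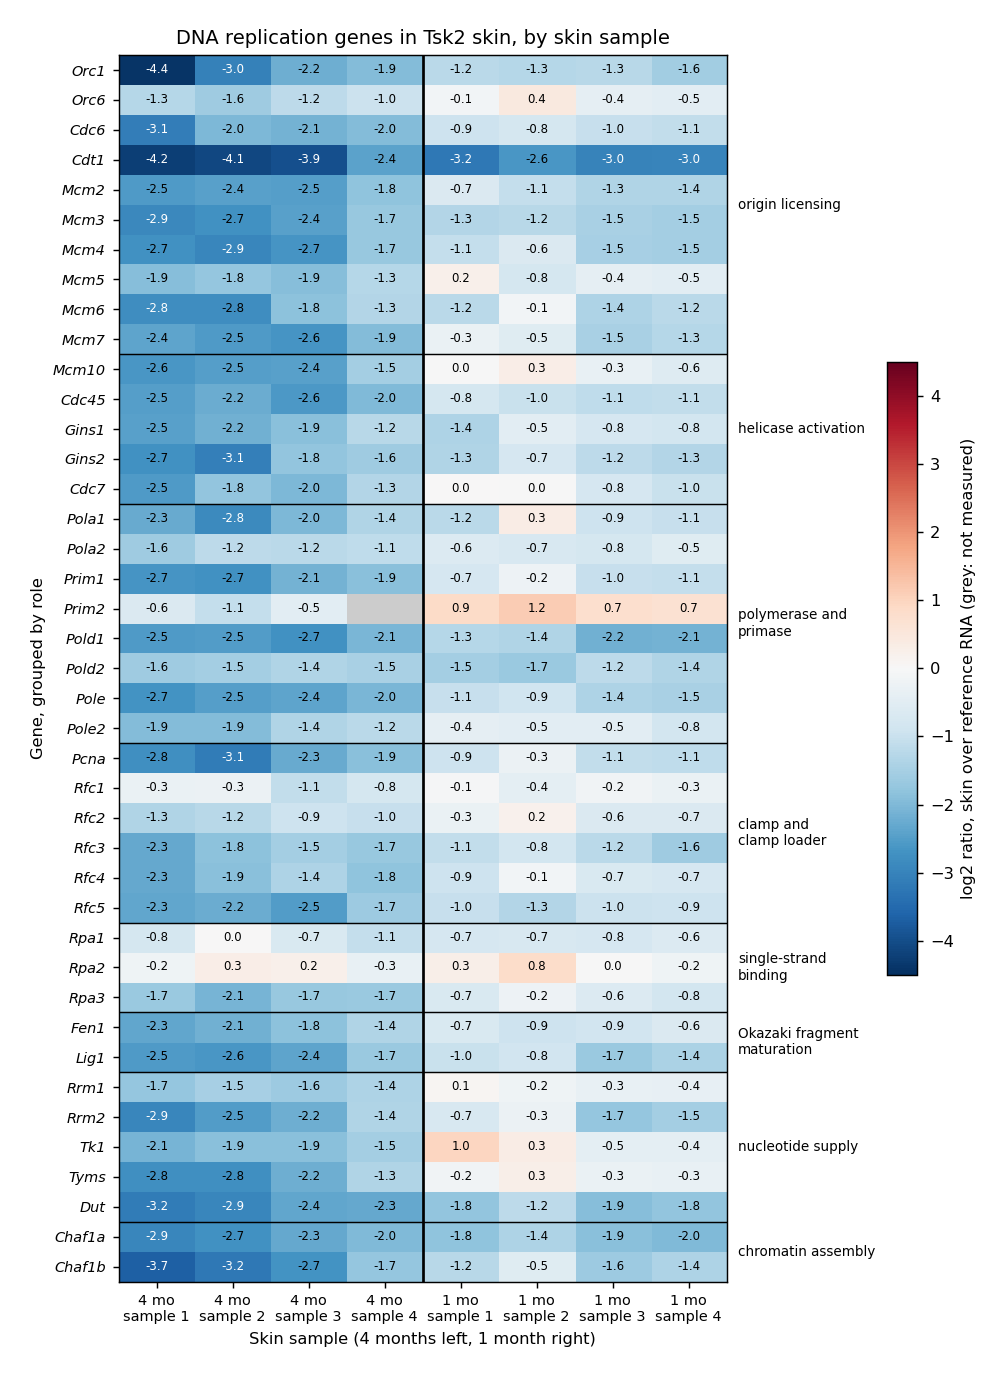
Log2 ratio of skin over reference RNA for the 41 replication genes (down the page, grouped by role) in each skin sample, with 4-month samples in the left block and 1-month samples in the right block. Blue cells are below 0, red cells above 0, and the grey cell is Prim2 in 4-month sample 4, which was not measured. The 4-month block is bluer for most genes, while Rpa1, Rpa2, Rfc1 and Pold2 look alike in both blocks.

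Averaged over the measured members, the log2 ratio was -2.32, -2.16, -1.93 and -1.56 in 4-month samples 1 to 4, against -0.76, -0.54, -1.02 and -1.05 in 1-month samples 1 to 4. The ages did not overlap, and neither was uniform. Sample 1 was the lowest 4-month sample for 24 of the 40 members measured in all samples, and sample 4 was the highest for 33. At 1 month, sample 2 was the highest for 24 of the 40 and sample 4 the lowest for 19. Samples 1 and 2 of that age share an ID number, as do samples 3 and 4. The mean of samples 1 and 2 exceeded the mean of samples 3 and 4 in 34 of 41 members. This difference of means had a median of 0.36 on the log2 scale over the members, and Rrm2 had the widest gap at 1.14. No share over all genes stands beside this count. Each list of sample values below runs from sample 1 to sample 4 of the age named, with n = 4 at each age unless a gap is stated. The counts by role below stand beside 3.06% of all genes called lower, and differences between roles were not tested.

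Origin licensing comprised 10 members, of which 5 fell at 4 months (Orc6, Cdc6, Mcm2, Mcm5 and Mcm7), with a median difference of -1.24 over all 10. Cdc6, the factor that recruits MCM rings to the origin recognition complex, had log2 ratios of -3.10, -2.01, -2.11 and -1.96 at 4 months, against -0.93, -0.77, -1.05 and -1.11 at 1 month. Its 4-month samples all lay lower, sample 1 furthest, and the difference was -1.36 (SE 0.30, adjusted p = 0.0303). Sample 1 was the lowest on 1 of the 2 Cdc6 probes (-3.70), while the other probe read -2.49 there and -2.81 in sample 3. The probe with -3.70 also gave the widest disagreement between repeat arrays of any member probe. It read -3.16 on one array of 4-month sample 2 and -0.05 on the other. Orc6, the smallest subunit of the origin recognition complex, had log2 ratios of -1.29, -1.59, -1.18 and -0.98 at 4 months, against -0.12, 0.44, -0.39 and -0.48 at 1 month. The ages were separate, and the difference of -1.10 (SE 0.28) was close to the threshold, with an adjusted p of 0.0462.

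The MCM2 to MCM7 proteins form the hexameric ring of the replicative helicase, and all 6 genes had negative differences. Mcm7 had log2 ratios of -2.38, -2.54, -2.65 and -1.95 at 4 months, against -0.29, -0.54, -1.46 and -1.28 at 1 month. Its 1-month samples 3 and 4 sat well below samples 1 and 2, yet above every 4-month sample, and the difference was -1.46 (SE 0.31, adjusted p = 0.0276). Mcm5 had log2 ratios of -1.93, -1.75, -1.93 and -1.28 at 4 months, against 0.21, -0.78, -0.42 and -0.49 at 1 month. Sample 4 was the highest 4-month sample and still lay below all 1-month samples, with a difference of -1.34 (SE 0.31, adjusted p = 0.0360). Mcm2 had log2 ratios of -2.54, -2.44, -2.47 and -1.80 at 4 months, against -0.66, -1.08, -1.34 and -1.36 at 1 month. Again 4-month sample 4 stood above its age, without reaching the 1-month samples, and the difference was -1.18 (SE 0.27, adjusted p = 0.0345).

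The other ring genes did not pass the test. Mcm4 had log2 ratios of -2.74, -2.92, -2.65 and -1.71 at 4 months, against -1.07, -0.63, -1.5 and -1.52 at 1 month, a difference of -1.29 (SE 0.34) just short of passing at an adjusted p of 0.0523. With the zeros kept the Mcm4 difference was -0.62 (adjusted p = 0.0986). Mcm3 had log2 ratios of -2.90, -2.73, -2.45 and -1.72 at 4 months, against -1.30, -1.24, -1.47 and -1.54 at 1 month (difference -1.04, adjusted p = 0.0668). For these 2 genes the ages did not overlap. Mcm6 had log2 ratios of -2.81, -2.79, -1.85 and -1.32 at 4 months, against -1.23, -0.13, -1.37 and -1.22 at 1 month. Here 4-month sample 4 reached into the 1-month range and 1-month sample 2 stood far above its age, and the difference was -1.19 (SE 0.47, adjusted p = 0.159). The differences of the 6 ring genes ranged from -1.46 for Mcm7 to -1.04 for Mcm3, and their 95% intervals overlapped.

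Orc1, the ATPase subunit of the origin recognition complex, had log2 ratios of -4.42, -3.03, -2.19 and -1.94 at 4 months, against -1.23, -1.30, -1.26 and -1.58 at 1 month. Its 4-month samples spread over a far wider range than its 1-month samples, so the difference of -1.59 (SE 0.53) did not pass (adjusted p = 0.102) although the ages were separate. Cdt1, the loader that geminin restrains once replication has begun, had log2 ratios of -4.25, -4.09, -3.94 and -2.39 at 4 months, against -3.23, -2.61, -3.02 and -2.96 at 1 month. The ages overlapped, because 4-month sample 4 exceeded all 1-month samples, and the difference was -0.67 (95% interval -1.64 to 0.30, adjusted p = 0.390). Without 4-month sample 4 the Cdt1 difference was -1.15 and passed (adjusted p = 0.013).

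Of the 5 genes that activate the helicase, 3 fell at 4 months (Mcm10, Cdc45 and Cdc7), with a median difference of -1.30 over the 5. Mcm10, a scaffold that joins the active helicase to polymerase alpha, had log2 ratios of -2.63, -2.49, -2.44 and -1.51 at 4 months, against -0.01, 0.31, -0.33 and -0.59 at 1 month. The difference of -2.09 (SE 0.33), or 4.25-fold lower, was the second lowest of the 41, and its adjusted p of 0.0107 was the lowest. Cdc45, the helicase cofactor that travels with MCM and GINS, had log2 ratios of -2.47, -2.25, -2.60 and -1.98 at 4 months, against -0.78, -1.02, -1.15 and -1.11 at 1 month. Samples of each age lay close together and far from the other age, and the difference was -1.30 (SE 0.23, adjusted p = 0.0162). Cdc7, the kinase that phosphorylates MCM proteins to start replication, had log2 ratios of -2.54, -1.78, -2.04 and -1.31 at 4 months, against 0.02, 0.00, -0.76 and -1.0 at 1 month. Its lowest 1-month sample was only slightly above its highest 4-month sample, and the difference was -1.48 (SE 0.35, adjusted p = 0.0381). With the zeros kept, a further Cdc7 probe entered and the difference was -0.96 without passing (adjusted p = 0.107).

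Gins1 and Gins2 encode subunits of the GINS complex, which holds polymerase epsilon to the helicase. Gins1 had log2 ratios of -2.45, -2.15, -1.87 and -1.24 at 4 months, against -1.39, -0.47, -0.76 and -0.82 at 1 month. Its ages overlapped through 4-month sample 4 and 1-month sample 1, and the difference was -1.06 (SE 0.35, adjusted p = 0.102). Gins2 had log2 ratios of -2.73, -3.08, -1.78 and -1.60 at 4 months, against -1.34, -0.74, -1.17 and -1.32 at 1 month, with a difference of -1.14 (SE 0.42, adjusted p = 0.129). Its ages were separate, with 4-month samples 1 and 2 far below samples 3 and 4.

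Of the 8 polymerase and primase genes, 4 fell (Prim1, Prim2, Pole and Pole2), and the median difference was -1.13. Primase makes the short RNA primers from which synthesis starts, and both of its subunits fell. Prim2, the large subunit, had log2 ratios of -0.64, -1.09 and -0.49 in 4-month samples 1 to 3 and no value in sample 4, against 0.86, 1.16, 0.75 and 0.68 at 1 month. The signs of the ages were opposite, and the difference was -1.59 (SE 0.28, adjusted p = 0.0172, fitted on 7 samples). Prim1, the catalytic subunit, had log2 ratios of -2.66, -2.71, -2.11 and -1.88 at 4 months, against -0.74, -0.24, -1.04 and -1.08 at 1 month. All 4-month samples lay below 1 month, and the difference was -1.55 (SE 0.31, adjusted p = 0.0210).

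Polymerase epsilon copies the leading strand. Pole, its catalytic subunit, had log2 ratios of -2.68, -2.48, -2.38 and -2.04 at 4 months, against -1.05, -0.88, -1.39 and -1.47 at 1 month. The ages were separate, and the difference was -1.19 (SE 0.24, adjusted p = 0.0219). Pole2, an accessory subunit, had log2 ratios of -1.94, -1.95, -1.36 and -1.22 at 4 months, against -0.41, -0.48, -0.47 and -0.82 at 1 month. Samples 3 and 4 were the higher ones at 4 months and sample 4 the lowest at 1 month, and the difference of -1.07 (SE 0.27) passed narrowly at an adjusted p of 0.0464. With the zeros kept, which lets another, mostly unmeasured probe into each gene, the differences shrank to -0.62 for Pole and -0.45 for Pole2 and still passed.

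Polymerase alpha, which extends the primers, and polymerase delta, which copies the lagging strand, had no subunit past the threshold among the 4 members. Pola1, the catalytic subunit of polymerase alpha, had log2 ratios of -2.27, -2.85, -2.02 and -1.36 at 4 months, against -1.21, 0.32, -0.94 and -1.05 at 1 month. Sample 2 stood far above its 1-month group, and the difference of -1.36 had an SE of 0.49 (adjusted p = 0.12). Pola2, the regulatory subunit, had log2 ratios of -1.61, -1.18, -1.20 and -1.14 at 4 months, against -0.63, -0.72, -0.78 and -0.53 at 1 month. Its ages were separate, but the difference was only -0.63 (SE 0.21, adjusted p = 0.106). Pold1, the catalytic subunit of polymerase delta, had log2 ratios of -2.54, -2.52, -2.74 and -2.07 at 4 months, against -1.30, -1.37, -2.17 and -2.13 at 1 month (difference -0.70, adjusted p = 0.169). Its 1-month samples formed a high pair, samples 1 and 2, and a low pair, samples 3 and 4, that overlapped the 4-month range. Pold2, an accessory subunit, had log2 ratios of -1.60, -1.52, -1.36 and -1.46 at 4 months, against -1.52, -1.65, -1.19 and -1.36 at 1 month. The ages coincided, and the difference of -0.06 had a 95% interval of -0.52 to 0.40 (adjusted p = 0.90).

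**Figure D2:**
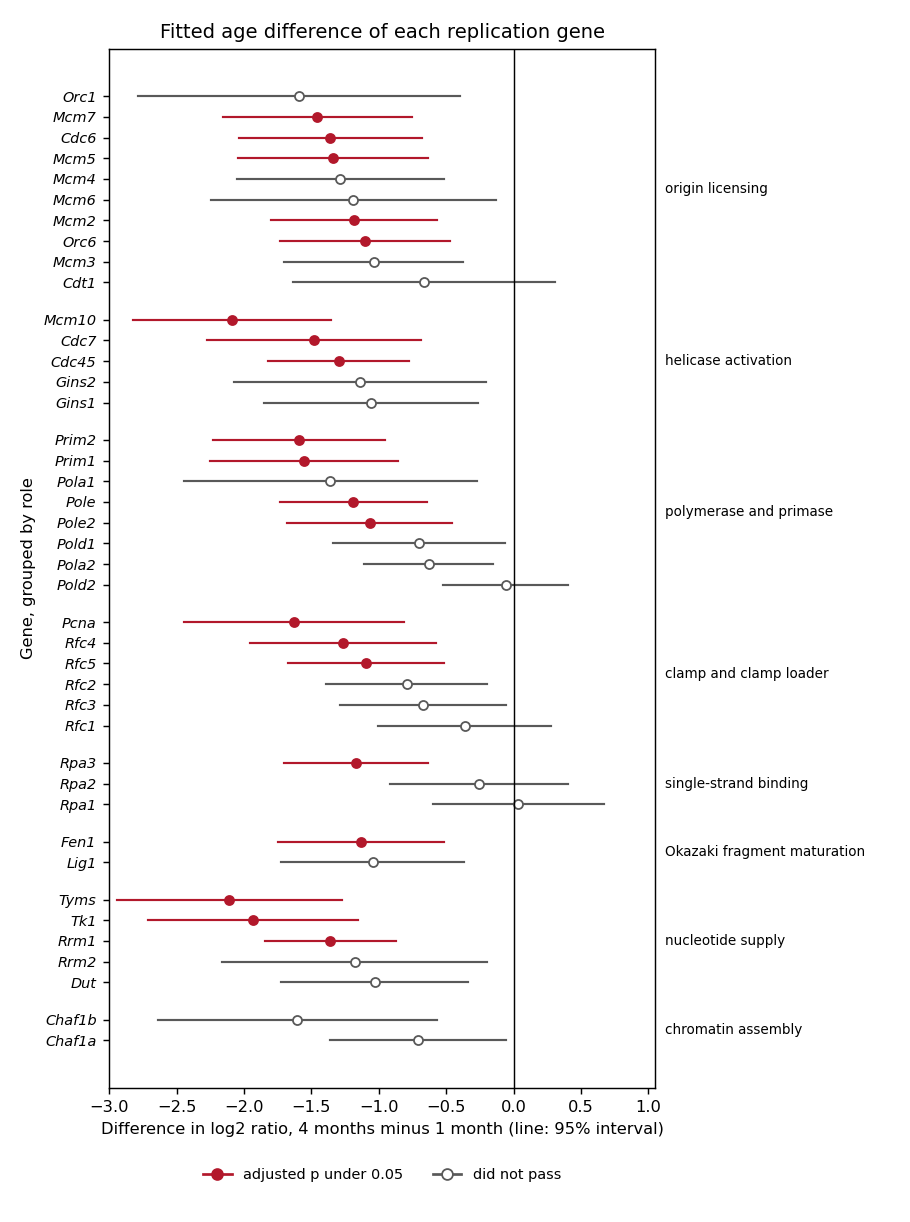
Fitted difference in log2 ratio, 4 months minus 1 month, for each of the 41 replication genes, grouped by role and ordered by size within a role, with lines for the 95% interval. Filled red points are the 20 genes with an adjusted p under 0.05, all below 0, and open grey points are the other 21. Rpa1, at 0.03, is the single point right of 0.

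The sliding clamp and its loader gave 3 falls among 6 genes (Pcna, Rfc4 and Rfc5) and a median difference of -0.94. Pcna, the ring that tethers polymerases to DNA and a common histological marker of cycling cells, had log2 ratios of -2.75, -3.14, -2.28 and -1.88 at 4 months, against -0.92, -0.27, -1.10 and -1.14 at 1 month. Its 4-month samples all lay lower, sample 2 furthest, and the difference was -1.63 (SE 0.36, adjusted p = 0.0307). The RFC proteins open the clamp to load it. Rfc4 had log2 ratios of -2.32, -1.90, -1.40 and -1.80 at 4 months, against -0.92, -0.12, -0.68 and -0.74 at 1 month, with a difference of -1.26 (SE 0.31, adjusted p = 0.0402). Rfc5 had log2 ratios of -2.34, -2.24, -2.50 and -1.65 at 4 months, against -1.03, -1.33, -0.97 and -0.92 at 1 month, with a difference of -1.10 (SE 0.26, adjusted p = 0.0362). For these 2 subunits the ages were separate.

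The remaining clamp loader subunits did not pass. Rfc2 had log2 ratios of -1.34, -1.24, -0.93 and -1.04 at 4 months, against -0.31, 0.20, -0.63 and -0.66 at 1 month, with separate ages and a difference of -0.79 (adjusted p = 0.103). Rfc3 had log2 ratios of -2.29, -1.84, -1.53 and -1.69 at 4 months, against -1.10, -0.81, -1.23 and -1.61 at 1 month. Its ages overlapped through 1-month sample 4, and the difference was -0.67 (adjusted p = 0.173). Rfc1, the large subunit found only in the replicative loader, had log2 ratios of -0.28, -0.26, -1.09 and -0.78 at 4 months, against -0.06, -0.43, -0.15 and -0.29 at 1 month. Its 4-month samples 1 and 2 fell inside the 1-month range, and the difference was -0.36 (95% interval -1.0 to 0.28, adjusted p = 0.492).

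Replication protein A, the trimer that coats single-stranded DNA in replication and in repair, was split. Rpa3, its smallest subunit, fell, with log2 ratios of -1.68, -2.09, -1.70 and -1.65 at 4 months, against -0.68, -0.25, -0.63 and -0.83 at 1 month. The ages were separate, and the difference was -1.17 (SE 0.24, adjusted p = 0.0223). Rpa2 had log2 ratios of -0.20, 0.29, 0.24 and -0.34 at 4 months, against 0.26, 0.83, -0.02 and -0.19 at 1 month (difference -0.26, 95% interval -0.92 to 0.40, adjusted p = 0.659). Rpa1, the large subunit, had log2 ratios of -0.80, 0.03, -0.68 and -1.07 at 4 months, against -0.75, -0.70, -0.77 and -0.60 at 1 month. Sample 2 stood above its 4-month group, the ages overlapped, and the difference was 0.03 (95% interval -0.60 to 0.67, adjusted p = 0.96). The intervals of Rpa1 and Rpa3 did not overlap, and a difference between subunits was not tested.

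Fen1 and Lig1 finish the lagging strand. Fen1, the nuclease that trims the RNA flap, fell, with log2 ratios of -2.34, -2.15, -1.85 and -1.35 at 4 months, against -0.68, -0.92, -0.88 and -0.63 at 1 month (difference -1.13, SE 0.28, adjusted p = 0.0398). Lig1, the ligase that seals the fragments, had log2 ratios of -2.54, -2.63, -2.38 and -1.67 at 4 months, against -1.0, -0.85, -1.66 and -1.42 at 1 month (difference -1.05, SE 0.30, adjusted p = 0.0689). In both genes the ages were separate, although the highest 4-month and lowest 1-month values of Lig1 nearly met.

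Nucleotide supply held the member with the lowest difference, and 3 of its 5 genes fell (Tyms, Tk1 and Rrm1), with a median difference of -1.36. Tyms, thymidylate synthase, which makes thymidylate from deoxyuridylate, had log2 ratios of -2.77, -2.77, -2.19 and -1.35 at 4 months, against -0.18, 0.27, -0.30 and -0.33 at 1 month. The 4-month samples were spread, sample 4 being the highest, but all lay below 1 month, and the difference of -2.11 (SE 0.37, adjusted p = 0.0150) was 4.31-fold lower. Tk1, the cytosolic thymidine kinase of the salvage route, had log2 ratios of -2.09, -1.87, -1.88 and -1.52 at 4 months, against 0.97, 0.33, -0.45 and -0.44 at 1 month. Its 4-month samples agreed closely while 1-month samples 1 and 2 stood above samples 3 and 4, and the difference was -1.93 (SE 0.35, adjusted p = 0.0158), or 3.82-fold lower.

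Ribonucleotide reductase, which makes deoxynucleotides, joins a large subunit, Rrm1, with a small subunit, Rrm2. Rrm1 had log2 ratios of -1.74, -1.49, -1.63 and -1.37 at 4 months, against 0.09, -0.19, -0.32 and -0.37 at 1 month. The spread within each age was small, and the difference of -1.36 had an SE of 0.22 (adjusted p = 0.0109). Another Rrm1 probe was left out for too few measured samples. Its values in 4-month samples 1 and 2 were the same number as those of 2403 and 2280 probes of those arrays, so no direction was read from it. Where looser filters let that probe in, the Rrm1 difference was -0.48 (at least 2 samples of each age, adjusted p = 0.455) and -0.29 (zeros kept, adjusted p = 0.658). Rrm2 had log2 ratios of -2.92, -2.52, -2.18 and -1.36 at 4 months, against -0.72, -0.26, -1.73 and -1.51 at 1 month. Its 4-month sample 4 exceeded 1-month samples 3 and 4, and the difference of -1.18 (SE 0.44) did not pass (adjusted p = 0.134). Dut, the dUTPase that keeps uracil out of DNA, had log2 ratios of -3.16, -2.92, -2.35 and -2.32 at 4 months, against -1.78, -1.18, -1.93 and -1.77 at 1 month (difference -1.03, SE 0.31, adjusted p = 0.0772). Its ages were separate.

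Chaf1a and Chaf1b encode subunits of chromatin assembly factor 1, which deposits histones behind the fork, and 0 of these 2 genes passed. Chaf1b had log2 ratios of -3.66, -3.23, -2.68 and -1.72 at 4 months, against -1.24, -0.54, -1.63 and -1.38 at 1 month. Its difference of -1.61 (SE 0.46, adjusted p = 0.0676) was larger in size than most that passed, with 4-month samples that ran over a wide range. Chaf1a had log2 ratios of -2.95, -2.71, -2.29 and -1.98 at 4 months, against -1.80, -1.40, -1.89 and -2.0 at 1 month, with overlapping ages and a difference of -0.71 (SE 0.29, adjusted p = 0.175).

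Members with and without an E2F match in the promoter window overlapped in their age differences. Beside 3.06% of all genes lower, 4 of the 12 with a match fell (Cdc6, Mcm5, Mcm7 and Pole2), with a median difference of -1.13. Of the 23 with a window and no match, 14 fell, with a median difference of -1.18. The 12 with a match spanned -1.59 for Orc1 to -0.67 for Cdt1, inside the span of those without. The split is by the letters searched and does not part E2F targets from other genes.

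Replication genes outside the 41 members were described in the same way. Of 43 measured among 44 listed, 11 fell and 0 rose, beside 3.06% of all genes lower and 4.19% higher. The median difference of the list was -0.80, and all 11 that fell are named here. Hells, a chromatin remodeller needed for DNA methylation, had log2 ratios of -3.14, -3.68, -3.54 and -2.0 at 4 months, against -0.22, -0.67, -0.64 and -0.91 at 1 month (difference -2.41, adjusted p = 0.0112). Uhrf1, which guides the maintenance methyltransferase to new DNA, had log2 ratios of -3.74, -3.37, -2.90 and -1.87 at 4 months, against -0.74, -0.45, -1.67 and -1.39 at 1 month (difference -1.88, adjusted p = 0.0398). In both genes the ages were separate and 4-month sample 4 was the highest of its age.

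Among factors that fire or hold the fork, Dbf4, the activating partner of the Cdc7 kinase, fell by 1.5 on the log2 scale (SE 0.26, adjusted p = 0.0147). The Dbf4 call was lost with at least 2 samples of each age (-0.95, adjusted p = 0.184) and with the zeros kept (-0.39, adjusted p = 0.129). Wdhd1, a fork scaffold, fell by 1.62 (SE 0.32, adjusted p = 0.0208), and with the zeros kept its difference was -0.94 without passing (adjusted p = 0.0669). Tipin, of the fork protection complex, fell by 1.18 (SE 0.22, adjusted p = 0.0168). Topbp1, a scaffold of origin firing and the checkpoint, fell by 1.03 (SE 0.25, adjusted p = 0.0401). Top2a, the topoisomerase that untangles daughter strands, fell by 1.57 (SE 0.29, adjusted p = 0.0171), and 4-month sample 1 was its lowest.

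Chromatin and strand-processing genes followed. Asf1b, a histone chaperone with no value in 4-month sample 3, fell by 1.39 on the log2 scale (SE 0.29, adjusted p = 0.0276). Slbp, which binds the stem-loop of histone messages, fell by 1.29 (SE 0.30, adjusted p = 0.0345). Rnaseh2b, of the nuclease that removes ribonucleotides, fell by 1.36 (SE 0.27, adjusted p = 0.0196). The nuclease and helicase gene Dna2 fell by 0.97 (SE 0.24, adjusted p = 0.040). Rrm2b, the reductase small subunit that serves resting cells, had the highest difference of the list and was named after its value was seen. Its log2 ratios were 0.40, 0.88, 0.85 and -0.23 at 4 months, against -1.89, -0.18, -0.56 and -1.18 at 1 month. The ages overlapped, through 4-month sample 4 and 1-month sample 2, and the difference was 1.37 (SE 0.48, adjusted p = 0.117), opposite in sign to that of Rrm2.

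**Figure D3:**
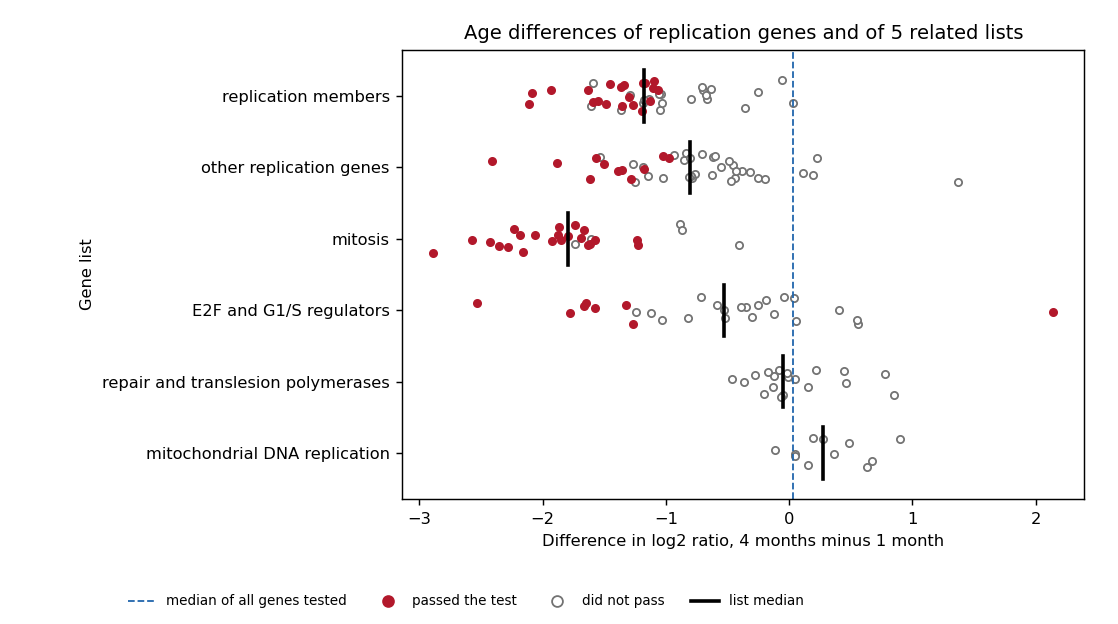
Fitted difference in log2 ratio, 4 months minus 1 month, for each measured gene of the 41 replication members and of 5 related lists, with filled points for an adjusted p under 0.05, a black bar at each list's median and a dashed line at the median of all genes tested. Mitosis has the lowest median at -1.79, and the members are at -1.18. The repair and translesion list, which also holds ligases and other repair factors, lies on both sides of 0. The mitochondrial replication list has 10 of 11 points above 0. Neither of these lists has a filled point, and Polg and Polg2 are in both.

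Genes that act just before and after DNA synthesis were set beside the members. Of 27 measured mitosis genes among 28 listed, 22 fell and 0 rose, beside 3.06% of all genes lower and 4.19% higher. The median difference of the list was -1.79. Mki67, the proliferation antigen, had log2 ratios of -3.61, -2.88, -3.29 and -1.81 at 4 months, against 0.49, -0.17, -0.22 and -0.05 at 1 month (difference -2.89, SE 0.42, adjusted p = 0.00858). Kif20a, a cytokinesis motor, had a difference of -2.58 (adjusted p = 0.00702). The spindle checkpoint gene Mad2l1 had a difference of -2.42 (adjusted p = 0.00698). Nek2, a centrosome kinase, had a difference of -2.36 (adjusted p = 0.0276), and its 4-month samples ran from -4.75 in sample 1 to -2.19 in sample 4. In these 4 genes 4-month sample 4 was the highest of its age, and every 4-month sample lay below every 1-month sample. In the promoter windows of mitosis genes the E2F letters occurred in 1 of 25 and the CHR letters in 18 of 25 (72.0%).

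Regulators of entry into DNA synthesis were mixed. Of 28 measured, 7 fell and 1 rose, beside 3.06% of all genes lower and 4.19% higher. The median difference of the list was -0.53. Ccna2, the cyclin of DNA synthesis and later phases, had log2 ratios of -3.65, -3.32, -3.39 and -2.42 at 4 months, against -0.38, -0.31, -1.04 and -0.86 at 1 month (difference -2.53, SE 0.33, adjusted p = 0.00698). E2f6, a repressor of the E2F family, was the gene that rose, with log2 ratios of 2.24, 3.05, 3.07 and 1.93 at 4 months, against -0.04, 0.71, 0.36 and 0.41 at 1 month (difference 2.15, SE 0.34, adjusted p = 0.0108). Both genes had separate ages, and with the zeros kept the E2f6 difference was 1.08 and still passed. Cdk4, the kinase partner of D-type cyclins, fell by 1.78 on the log2 scale (SE 0.41, adjusted p = 0.0347). The activator E2f2 fell by 1.66 (SE 0.29, adjusted p = 0.0138). E2f1, the best known activator of replication genes, had a difference of -0.35 (95% interval -0.98 to 0.28, adjusted p = 0.493) with overlapping ages. Cdk2, the kinase bound by cyclins E and A, had a difference of -0.53 (95% interval -1.10 to 0.04, adjusted p = 0.242).

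Genes for DNA repair and translesion synthesis and for mitochondrial DNA replication had no calls. The repair and translesion list holds polymerases and also ligases and other repair factors, as Lig3, Lig4, Xrcc1 and Parp1. Of its 19 measured genes among 20 listed, limma called 0 in either direction. An unadjusted p under 0.05 was found for 1, beside 24.3% of all genes, and the list's median difference was -0.05. Of 11 measured mitochondrial DNA replication genes among 12 listed, limma called 0 and 3 had an unadjusted p under 0.05. The median difference was 0.28, with 10 of the 11 above 0, beside 7061 of all 13501 genes. Polg and Polg2 are in both lists, with the same values. The differences of these lists spanned -0.47 to 0.85 and -0.11 to 0.90, against -2.11 to 0.03 for the 41 members.

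**Figure D4:**
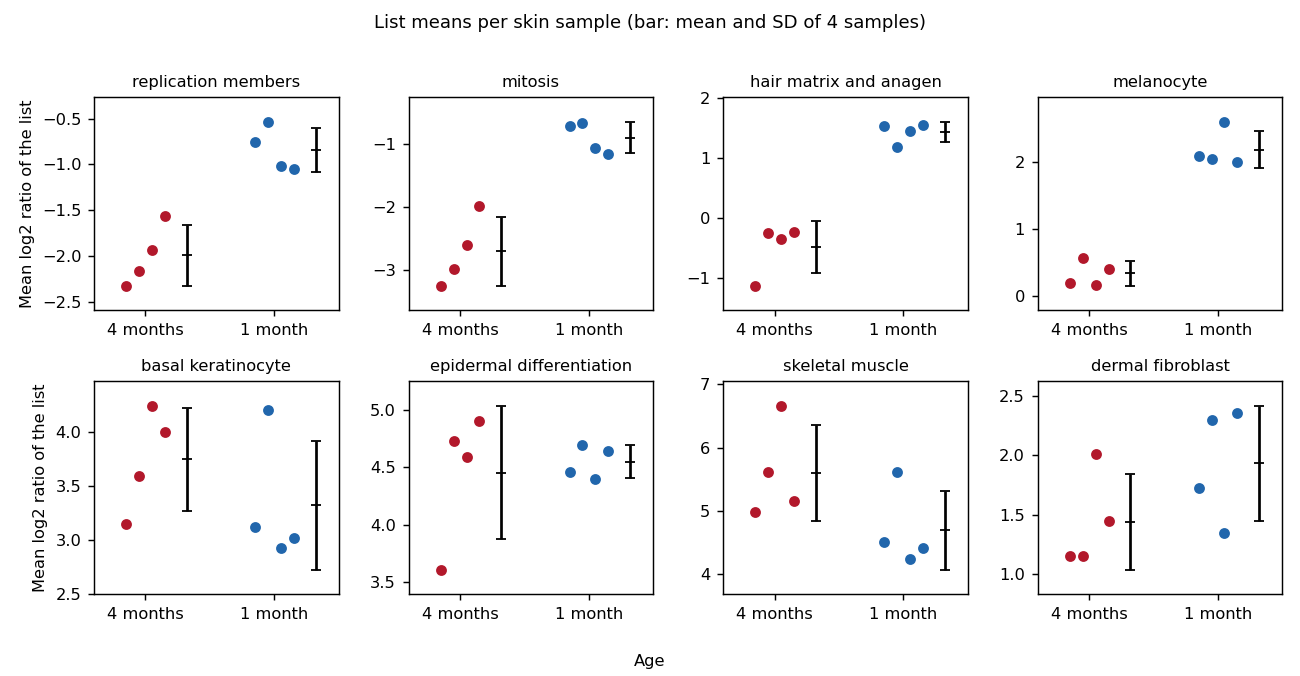
Mean log2 ratio of skin over reference RNA over the measured genes of 8 lists, with 1 point per skin sample, 4 months left of 1 month in each panel, and a bar for the mean and SD of 4 samples. The vertical scale differs between panels. Replication, mitosis, hair matrix and melanocyte lists are lower at 4 months with separate ages, while basal keratinocyte, epidermal, muscle and fibroblast lists overlap.

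Markers of other skin cells moved with the members in part. Beside 3.06% of all genes, hair matrix and anagen genes, which mark growing hair, fell in 7 of 11 measured of 14 listed. Their mean log2 ratio was -1.14, -0.24, -0.35 and -0.23 in 4-month samples 1 to 4, against 1.54, 1.18, 1.46 and 1.55 in 1-month samples 1 to 4, so the ages were separate. Lef1, the Wnt effector of matrix cells, had a difference of -3.22 (SE 0.38, adjusted p = 0.00464). Msx1 had a difference of -1.15 (adjusted p = 0.0386), and Msx2 had -3.89 without passing (adjusted p = 0.0859). Melanocyte genes, which hair follicles express with pigmented growth, fell in 3 of 6 measured of 10 listed, beside 3.06% of all genes. The list mean log2 ratio was 0.17 to 0.57 over 4-month samples, against 2.01 to 2.60 over 1-month samples. Tyr, at 0.12 to 0.235 in the other 1-month samples, had no value in 1-month sample 3, where the mean was 2.60. It also had no value in 4-month sample 4. What part hair growth has in the values of the replication genes was not tested.

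The basal keratinocyte list, which marks the dividing layer of the epidermis, had 0 of 9 genes called. Beside 24.3% of all genes with an unadjusted p under 0.05, this list had 3 of 9. Its median difference was 0.39, with list means of 3.15 to 4.24 at 4 months, against 2.93 to 4.20 at 1 month. Krt5 had a difference of 0.18 (adjusted p = 0.902) and Krt14 of 0.07 (adjusted p = 0.957). In the basal list 8 of 9 differences lay above 0, beside 7061 of all 13501 genes. Every 4-month sample lay above every 1-month sample in 3 of the 9, beside 1477 of all 13501 genes. Epidermal differentiation had 0 of 10 measured genes called and 0 with an unadjusted p under 0.05. Its mean over the genes measured in a sample was 3.60 in 4-month sample 1, against 4.40 to 4.90 in the other 7 samples. Sprr1b, at -1.58 in 4-month sample 1, had no value in 4-month sample 2 and 1-month sample 1. These means are therefore not all over the same genes. Skeletal muscle had 3 of 16 genes higher, beside 4.19% of all genes. Its list means were 4.97 to 6.66 at 4 months, against 4.23 to 5.61 at 1 month, highest in 4-month sample 3 and 1-month sample 2. Dermal fibroblast genes had 0 of 9 called and 2 with an unadjusted p under 0.05, around a median difference of -0.60. Of the remaining marker lists, limma called 0 genes. An unadjusted p under 0.05 was found for 2 of 9 hair shaft, 1 of 8 adipocyte, 3 of 6 macrophage, 2 of 6 endothelium, 0 of 5 T cell and 0 of 2 B cell genes, beside 24.3% of all genes. Without 4-month sample 3 and 1-month sample 2, which had the highest muscle level of their ages, 16 of 40 members passed as lower, against 4.18% of all genes, in a fit with no block because the correlation could not be estimated. The fit with no block on all 8 samples called 28 of 41 members, against 6.73% of all genes. The part of these cell types in the member differences was not tested.

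**Figure D5:**
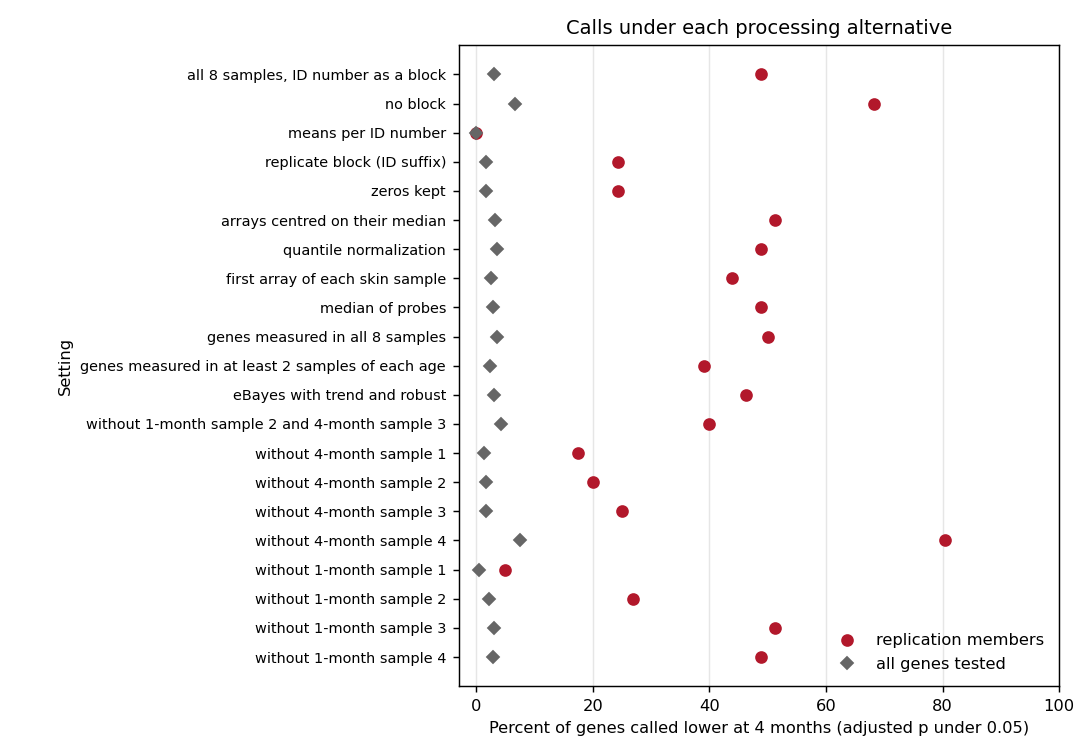
Percent of the 41 replication genes (red circles) and of all genes tested (grey diamonds) called lower at 4 months with an adjusted p under 0.05, with all 8 samples and under each of 20 alternatives. With all 8 samples 20 of 41 members were called beside 3.06% of all genes, and the members lie right of all genes in every line except the means per ID number, where neither has a call.

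Single members differed in how far their calls depended on the processing. Mcm10 and Tk1 passed in 19 of 20 alternatives, and Cdc45 and Tyms in 18. With each ID number reduced to its mean, 3 values against 2, 0 members and 0 of all 13501 genes tested passed. The lowest adjusted p of a member was 0.0952 in that fit. There 32 members had an unadjusted p under 0.05, and no share over all genes stands beside this count. Pole2, Fen1 and Cdc7 passed in 10. Mcm4 passed in 6, and Pola2, Pold1, Pold2, Rfc1, Rfc2, Rfc3, Rpa1 and Rpa2 in none.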

How the data were processed

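Total skin RNA (200 ng) was labelled with Agilent Quick-Amp chemistry, per the labels' protocols. The authors deposited one value per probe and array, read here as a log2 ratio of the 2 dyes, with base and numerator not stated. The correction for background, the normalization and the software behind them are not named in the sources. The sign was turned so that skin stands over reference, and 0 was read as not measured. Of 41174 probes, 32664 carried 1 gene symbol and only these were used. Of these, 32524 were matched by gene number to RefSeq, which changed 0 symbols. Repeat arrays were averaged. Probes of a gene were averaged, with gaps filled by an additive fit over probes and samples, and probe and gene needed values in at least 3 samples of each age. The 41 members used 50 of their 59 probes.

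The age difference was fitted in R 4.3.3 by limma 3.58.1 (lmFit, eBayes) and statmod 1.5.0, with the ID number as a random block through duplicateCorrelation (0.31). P-values were adjusted by Benjamini-Hochberg over 13501 genes at a threshold of 0.05. The fitted difference weights samples by block, so it can depart slightly from the difference of means. Alternatives changed the block, the zeros, centring, normalization, repeat arrays, probe summary, filter and samples. The procedure was also run on simulated normal values that took their spread, block correlation and gaps from the fit. Such values cannot show whether the real ones meet the assumptions of the fit. Members and lists were chosen with earlier results of these data known. All members were named, with every called gene among the other replication genes, up to 4 called per further list, Mki67, E2f1 and Cdk2, and the leading genes of marker lists. The number of arrays limits the precision.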

Additional observations from a re-analysis of the deposited data

Results flagged for a closer look

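Of 83 groups of 4 samples, 81 of single members and 2 of the member mean, 7 held a sample that stood apart from the others of its age, with a gap to the nearest beyond Dixon's 95% critical share of the group's range. All 7 were groups of single members. Chance alone marks about 1 in 20 groups, and the values are log2 ratios. At 4 months, Cdc6 was at -3.10 in sample 1 with the nearest sample at -2.11, and Pola2 was at -1.61 in sample 1 with the nearest at -1.20. Cdt1 was at -2.39 in sample 4 with the nearest at -3.94, and Mcm2 was at -1.80 in sample 4 with the nearest at -2.44. Rpa3 was at -2.09 in sample 2 with the nearest at -1.70. At 1 month, Mcm6 was at -0.13 in sample 2 with the nearest at -1.22, and Pole2 was at -0.82 in sample 4 with the nearest at -0.48.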

How the results depend on the processing

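Under all 20 alternatives the median difference of the members stayed below 0, moved by less than the spread between replicates, and 0 members were higher. The count of 20 lower members was 28 with no block, 0 with means per ID number and 10 with the zeros kept. The shares of all genes lower in these fits were 6.73%, 0.00% and 1.63%. The ID suffix as a replicate block is a pairing of sample numbers across ages that the labels do not explain. With it, 10 members and 7 of the other replication genes were lower, against 1.72% of all genes. The count of 11 lower among those other genes was 19 with no block, 0 with means per ID number and 6 with the zeros kept. Leaving out 1 sample in turn gave 2 (without 1-month sample 1) to 33 (without 4-month sample 4) lower members and 0 to 18 lower other genes, at the same extremes. The shares of all genes lower there were 0.426% and 7.45%. Of the 20 members, 18 lost their call without 1-month sample 1, where the block correlation was 0.61, and 12, 11, 9 and 9 lost it without 4-month sample 1, 2 or 3 or 1-month sample 2, where Prim2 was not tested without the 4-month ones. Signs turned only for Rpa1 and Pold2, both near 0. Rpa1 was at -0.026 with means per ID number and between -0.14 (without 4-month sample 2) and 0.20 (without 4-month sample 4) with 1 sample left out, including -0.0082 without 1-month sample 1. Pold2 was at 0.079 with quantile normalization, 0.036 with the first array of each sample, and between -0.11 (without 1-month sample 2) and 0.024 (without 1-month sample 3) with 1 sample left out. The cause was not tested. Repeat arrays of one sample differed by a median of 0.28 (4-month sample 2) and 0.32 (1-month sample 1) in size over the member probes.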

Other observations

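Where a gene had several usable probes, the age differences of its probes were close in most cases. Of the 9 such members, the widest gap was 0.26 on the log2 scale, for Cdc7. For Cdc6 the 2 probes had differences of -1.22 and -1.44, although in 4-month sample 1 they read -3.70 and -2.49. In 4-month sample 3 the same probes read -1.41 and -2.81. A further 9 probes of 8 members were left out for too few measured samples. On each array some values recur on at least 100 probes. They made up 28 of the 29 measured values of the left-out probes (96.6%), against 4 of the 497 values of the member probes used (0.805%). With the zeros kept such probes entered the gene means.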
